A study of Homo sapiens with 8 samples.

Results

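The genes of cholesterol and fatty acid synthesis, with those that control, take up and export sterols, were examined in the mRNA of Panc-1 cells, a human line of pancreatic ductal carcinoma. With earlier results of these data known, they were chosen by name from a list of 35 genes. Of these, 34 were among the 13307 genes of the table, and ABCG1 was not among them. The cells were grown in 10% FBS and transfected with siControl, a non-targeting siRNA, or with siPHF13, siRNAs against the PHD finger protein PHF13, which binds methylated histone H3. Both kinds of cells were either untreated or given TGFβ, an inducer of epithelial-mesenchymal transition, at 10 ng/ml for 48 h. This gave 4 groups of 2 libraries: siControl, siPHF13, siControl_TGFβ and siPHF13_TGFβ. All groups were thus transfected, and all came from 1 cell line. The labels and the methods describe duplicates, but not whether these were separate cultures, so that the p-values measure only the spread between these libraries, which may be technical. In the methods 2 siRNA duplexes against PHF13 are listed, and whether they were pooled is not given in the sources used here.

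Cholesterol is built from acetyl-CoA through mevalonate to isoprenoid units, which are joined to squalene, closed to lanosterol and trimmed to cholesterol. Most genes of this route, and many of fatty acid synthesis, are activated by the sterol regulatory element binding proteins, SREBP1 and SREBP2. These factors are held in the endoplasmic reticulum by the sterol sensor SCAP and its anchors INSIG1 and INSIG2, and are released when sterols fall. Excess sterol is sensed by the LXR receptors, which activate the efflux pump ABCA1. Tumour cells of the pancreas use the same routes to make membrane lipids.

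Between 39196214 and 46700806 reads per library lay on the genes of the table. The values are normalized counts, that is gene counts divided by 1 factor per library. PHF13 had 1804 and 1662 normalized counts in the siControl libraries, 524 and 558 in siPHF13, 1586 and 1709 in siControl_TGFβ and 513 and 529 in siPHF13_TGFβ. Its level was thus 31.2% of the control without TGFβ and 31.6% with it, with log2 fold changes of -1.68 and -1.66. The epithelial and ductal markers KRT7, KRT8, KRT18, KRT19 and EPCAM were in the table. Of 12 markers of other cell types, 10 were not in the table, including those that define leukocytes, endothelium and acinar or islet cells. The other 2, CD68 and PDGFRB, summed to 7264.8 to 7385.7 normalized counts in siControl, 11951.7 to 13076.4 in siPHF13, 6163.1 to 7723.4 in siControl_TGFβ and 10569.1 to 13438.0 in siPHF13_TGFβ, nearly all of it CD68, a lysosomal protein. Its part in the results below was not tested. In bulk libraries such as these, fewer cells of a kind and less RNA per cell cannot be told apart.

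The promoters of 5 members are shown because these genes share a pathway and differed in their response: HMGCS1, MSMO1 and STARD4 were lower after depletion of PHF13, INSIG1 was not called, and SREBF2 encodes SREBP2 itself. Each line gives the 200 bases before the transcription start site in the RefSeq table of GRCh38.p14, from 5′ to 3′ on the gene's strand. Capitals mark the letters of the sterol regulatory element (TCACNCCAC), of the NF-Y motif (CCAAT) and of the Sp1 motif (GGGCGG), or of their reverse complements. For HMGCS1, which has more than 1 start site in that table, the upstream one is shown.
HMGCS1 (chr5:43313413-43313612, minus strand): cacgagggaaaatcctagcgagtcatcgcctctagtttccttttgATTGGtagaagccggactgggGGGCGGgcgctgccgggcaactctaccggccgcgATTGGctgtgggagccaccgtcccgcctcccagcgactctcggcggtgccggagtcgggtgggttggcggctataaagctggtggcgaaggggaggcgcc
MSMO1 (chr4:165327469-165327668, plus strand): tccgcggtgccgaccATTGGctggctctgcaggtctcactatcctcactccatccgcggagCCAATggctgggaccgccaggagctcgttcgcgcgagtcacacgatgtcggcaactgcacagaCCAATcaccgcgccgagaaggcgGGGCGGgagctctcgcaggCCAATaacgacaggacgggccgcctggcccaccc
STARD4 (chr5:111512536-111512735, minus strand): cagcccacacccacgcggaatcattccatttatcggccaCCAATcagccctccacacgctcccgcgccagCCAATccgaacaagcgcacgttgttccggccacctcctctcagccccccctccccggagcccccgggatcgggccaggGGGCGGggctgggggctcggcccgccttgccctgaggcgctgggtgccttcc
INSIG1 (chr7:155297678-155297877, plus strand): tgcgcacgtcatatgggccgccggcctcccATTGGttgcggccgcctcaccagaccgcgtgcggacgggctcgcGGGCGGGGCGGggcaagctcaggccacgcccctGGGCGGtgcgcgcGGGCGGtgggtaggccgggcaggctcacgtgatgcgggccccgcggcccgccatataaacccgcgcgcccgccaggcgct
SREBF2 (chr22:41832905-41833104, plus strand): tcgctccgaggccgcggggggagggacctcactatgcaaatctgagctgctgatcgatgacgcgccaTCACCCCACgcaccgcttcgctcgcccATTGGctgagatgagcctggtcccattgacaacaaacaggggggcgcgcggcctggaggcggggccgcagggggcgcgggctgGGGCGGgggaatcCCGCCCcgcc

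The table held a promoter for 30 of the 35 listed genes and none for ACAT2, FDFT1, SQLE, ABCG1 and FASN. In the 250 bases before a start site, searched on both strands, CCAAT stood in 19 of the 30 members (63.3%). It stood in 37.0% of the 27305 genes with a promoter in the RefSeq table. These include genes not among the 13307 measured, so the shares here are not matched for expression. GGGCGG stood in 29 of the 30 (96.7%) and in 46.2% of the 27305 genes. The letters TCACNCCAC stood only in SREBF2 among the 30, and in 1.09% of the 27305 genes. A match is a description of these letters, and a missing match says only that the letters are not in this window. Of the 7 members with a promoter that were called lower after depletion without TGFβ, 4 held CCAAT (MSMO1 with 4 motifs, HMGCS1 and STARD4 with 2 each and ACSS2 with 1), and CYP51A1, ELOVL6 and FADS2 did not. Of the other 23 members with a promoter, 15 held it, with 1 to 5 motifs, from 1 in INSIG1 and SREBF2 to 5 in NSDHL and MVK. The promoters printed were picked with the response of their genes known. The numbers of CCAAT motifs overlapped between the 7 lowered members and the other 23. The letters of the other 2 motifs were not compared by response. ACAT2 and SQLE, also called lower, had no promoter to count, and a part of these motifs in the response was not tested.

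Depletion of PHF13 lowered 9 of the 34 members and raised none, with genes called at a Benjamini-Hochberg adjusted p under 0.05 from limma and an absolute log2 fold change over 0.58. The 9 were ACAT2, HMGCS1, SQLE, CYP51A1, MSMO1, STARD4, ACSS2, ELOVL6 and FADS2. They made up 26.5% of the members, while 10.4% of all genes were called lower and 7.95% higher in this comparison. The members were chosen with earlier results of these data known, so their share is a description and no independent support. By the adjusted p alone 19 members (55.9%) were lower and 1, SCAP, was higher, beside 24.3% and 23.1% of all genes. At an unadjusted p under 0.05 from limma 1 member was higher, and edgeR and DESeq2 also called 0 members higher and 9 lower. The median log2 fold change was -0.32 over the members and 0.00 over all genes. The level of each member in each library, relative to the siControl mean, is drawn in the heatmap.

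**Figure D1:**
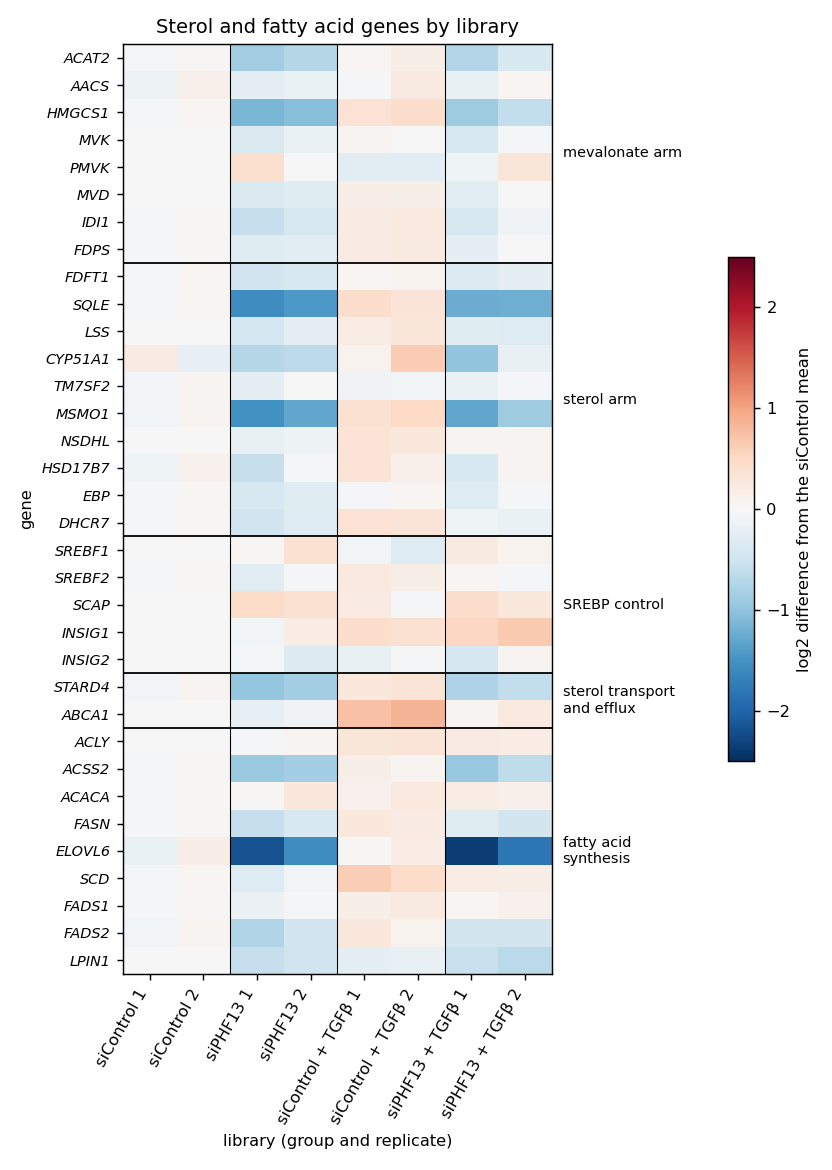
Heatmap of the 34 members (rows, grouped by role) in the 8 libraries (columns), coloured by the log2 difference of the normalized count from the mean of the siControl libraries. SQLE, MSMO1, HMGCS1, STARD4, ACSS2 and ELOVL6 are blue in all 4 libraries with siPHF13, and ABCA1 is reddest in both siControl_TGFβ libraries.

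Of the 8 genes of the mevalonate arm, 2 (25%) were called lower without TGFβ, beside 10.4% of all genes. HMGCS1 (chr5:43287572-43313614, minus strand, on GRCh37 like the gene spans that follow), the enzyme that makes HMG-CoA, had 6568 and 7051 normalized counts in siControl and 3072 and 3240.5 in siPHF13. Both depleted libraries lay below both controls, at 46.4% of their level, with a log2 fold change of -1.11 (SE 0.08, adjusted p = 2.12e-07), where SE is the standard error of the fold change. ACAT2 (chr6:160183077-160200144, plus strand), the cytosolic thiolase that joins acetyl-CoA at the head of the route, had 3285 and 3384 in siControl and 1829 and 2022 in siPHF13, with no overlap and a log2 fold change of -0.79 (SE 0.10, adjusted p = 2.59e-05). The kinase MVK, the kinase PMVK and the acetoacetyl-CoA ligase AACS did not pass the adjusted p, and their log2 fold changes were -0.26, 0.21 and -0.20. The decarboxylase MVD (-0.34), the isomerase IDI1 (-0.49) and the prenyl synthase FDPS (-0.29) were lower by the adjusted p alone. Annotated genes on the opposite strand cover 37.7% of the exon bases of HMGCS1 and 22.2% of those of ACAT2, and the strand setting of the counting is not given in the sources used here.

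All 10 genes of the sterol arm, from squalene to cholesterol, had negative log2 fold changes. Of them 3 (30%) were called lower, beside 10.4% of all genes. SQLE, the squalene epoxidase and a control point of the arm, had 7424 and 7641 normalized counts in siControl and 2571 and 2793 in siPHF13. The depleted libraries did not overlap the controls and stood at 35.6% of their level, with a log2 fold change of -1.49 (SE 0.07, adjusted p = 2.31e-09). MSMO1 (chr4:166248819-166264316, plus strand), which oxidizes the methyl groups at position C4 of the sterol ring, had 7535 and 8197 in siControl and 2739 and 3188 in siPHF13, with no overlap. Its log2 fold change was -1.41 (SE 0.11, adjusted p = 3.76e-07). NSDHL, the next enzyme after MSMO1 in the same demethylation, was at 89.6% of its control level, with 5155 and 5215 against 4544 and 4749 (log2 fold change -0.16, SE 0.06, adjusted p = 0.044). The 95% intervals were -1.65 to -1.17 for MSMO1 and -0.29 to -0.03 for NSDHL.

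CYP51A1 (chr7:91714301-91764117, minus strand), the lanosterol demethylase, was called lower with a wider spread. It had 355 and 270.3 normalized counts in siControl and 189 and 195 in siPHF13, and its log2 fold change was -0.69 (SE 0.24, adjusted p = 0.0322). The call was lost without siControl replicate 1 (-0.49, adjusted p = 0.232), without siPHF13 replicate 1 (-0.66, adjusted p = 0.119) and without siPHF13 replicate 2 (-0.71, adjusted p = 0.0953). Other annotated genes cover 74.1% of its exon bases, so reads could be split or shared between them. FDFT1, the squalene synthase (-0.44), LSS, the lanosterol cyclase (-0.33), EBP, the sterol isomerase (-0.35), and DHCR7, a reductase late in the route (-0.41), were lower by the adjusted p alone. TM7SF2 (-0.12) and HSD17B7 (-0.31), both sterol reductases, did not pass it.

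None of the 5 genes that control the pathway was called, beside 7.95% of all genes called higher and 10.4% lower. With 5 genes, a count of 0 says little beside such shares. Their median log2 fold change was 0.06. SREBF1, which encodes SREBP1, had 3713 and 3736 normalized counts in siControl and 3778 and 4826 in siPHF13, a log2 fold change of 0.20 (SE 0.11, adjusted p = 0.146) with a 95% interval of -0.03 to 0.43. SREBF2 had 6955 and 7303 in siControl and 5918 and 6859.8 in siPHF13, and its log2 fold change of -0.16 had a 95% interval of -0.32 to 0.00 (adjusted p = 0.0934). INSIG1, itself a known SREBP target, had 5078 and 5063 in siControl and 4804 and 5782 in siPHF13, so that the groups overlapped. Its log2 fold change was 0.06 with a 95% interval of -0.12 to 0.23. The activity of the SREBPs was not tested. INSIG2 had 1194 and 1199 in siControl and 1156 and 939 in siPHF13 (log2 fold change -0.20, 95% interval -0.50 to 0.10). SCAP was the member that was higher by the adjusted p alone, with 2345 and 2314 in siControl and 3187 and 3042 in siPHF13 and a log2 fold change of 0.42 (SE 0.08, adjusted p = 0.00109).

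Of the sterol carriers, STARD4 (chr5:110831731-110848288, minus strand), a cytosolic protein that moves cholesterol between membranes, had 3074 and 3367 normalized counts in siControl and 1642 and 1792 in siPHF13. Both depleted libraries lay below both controls, and the log2 fold change was -0.91 (SE 0.08, adjusted p = 9.36e-07). ABCA1 (chr9:107543287-107690436, minus strand) had 669.6 and 680.3 in siControl and 583 and 634 in siPHF13, which did not pass the adjusted p (log2 fold change -0.15, SE 0.10, adjusted p = 0.25).

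**Figure D2:**
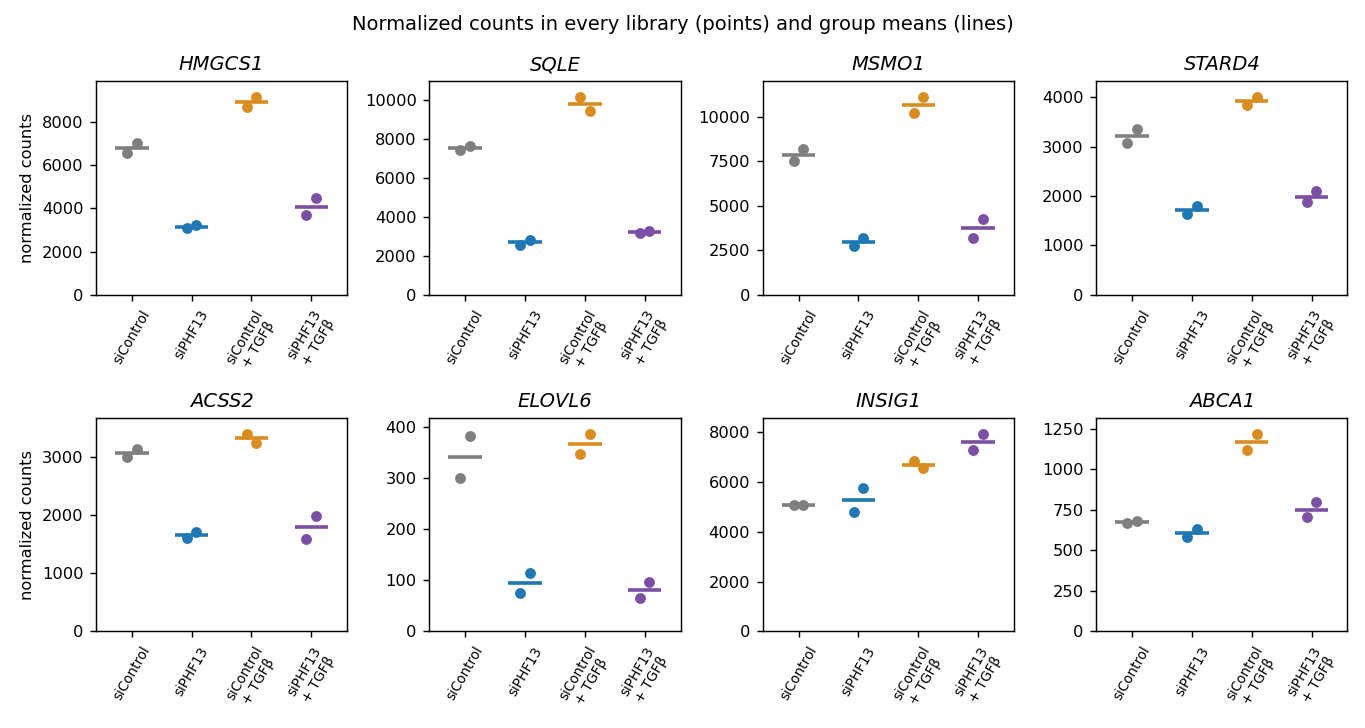
Normalized counts (vertical axes, from 0) of 8 members in each of the 4 groups, with a point for each library and a line at the group mean. In HMGCS1, SQLE, MSMO1, STARD4, ACSS2 and ELOVL6 all 4 libraries with siPHF13 lie below all 4 with siControl, whereas INSIG1 is highest in siPHF13_TGFβ and ABCA1 in siControl_TGFβ.

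In fatty acid synthesis 3 of 9 genes (33.3%) were called lower, beside 10.4% of all genes. The elongase ELOVL6 (chr4:110967002-111120355, minus strand), which extends palmitate to stearate, had the largest fold change of the members in this comparison, with 302 and 384 normalized counts in siControl and 74.6 and 115 in siPHF13. It stood at 27.7% of the control, without overlap, with a log2 fold change of -1.86 (SE 0.24, adjusted p = 2.66e-05). ACSS2 (chr20:33459949-33515765, plus strand), which makes acetyl-CoA from acetate, had 3007 and 3147 in siControl and 1607 and 1713 in siPHF13, without overlap. Its log2 fold change was -0.89 (SE 0.09, adjusted p = 4.35e-06). The other source of cytosolic acetyl-CoA, the citrate lyase ACLY, had 16326 and 16752 in siControl and 16112 and 17353 in siPHF13, so that its groups overlapped, with a log2 fold change of 0.02 and a 95% interval of -0.11 to 0.14.

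FADS2 (chr11:61560452-61634826, plus strand), the delta-6 desaturase, had 12701 and 13791 normalized counts in siControl and 7807 and 9466 in siPHF13, a log2 fold change of -0.62 (SE 0.09, adjusted p = 5.94e-05). It was close to the threshold on the fold change and fell under it without siControl replicate 2 (-0.56) or siPHF13 replicate 1 (-0.48). FASN (chr17:80036214-80056170, minus strand), the fatty acid synthase, had 35263 and 36952 in siControl and 24320.2 and 27786 in siPHF13 and was lower by the adjusted p alone (log2 fold change -0.47, SE 0.07, adjusted p = 0.000141), as was the phosphatidate phosphatase LPIN1 (-0.54). The carboxylase ACACA (0.14), the delta-9 desaturase SCD (-0.20) and the delta-5 desaturase FADS1 (-0.09) did not pass the adjusted p. FADS1 lies beside FADS2 on the opposite strand.

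Depletion was next compared in cells treated with TGFβ. Here 11 of 34 members (32.4%) were called lower and none higher, beside 11.7% and 8.81% of all genes. By the adjusted p alone 21 members (61.8%) were lower and 3 (PMVK, SREBF1 and SCAP) higher, beside 25.9% and 24.5% of all genes. At an unadjusted p under 0.05 from limma 4 members were higher, and edgeR and DESeq2 also called 0 higher and 11 lower. The median log2 fold change was -0.35 over the members and 0.00 over all genes. This comparison shares no library with the one without TGFβ, though 1 fit gave the spread for both. All 9 members called lower there were also called lower here (9 of 11). Over all genes, 1075 of the 1390 called lower there were also called lower here. Of the 34 members, 32 had the same sign in both, and across members the log2 fold changes had a Pearson correlation of 0.965, beside 0.814 across all genes. These correlations describe genes measured in the same libraries, which are not independent replicates.

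The enzymes with the largest changes were again SQLE, MSMO1, HMGCS1 and ELOVL6. SQLE had 10151 and 9433 normalized counts in siControl_TGFβ and 3167 and 3249 in siPHF13_TGFβ, a log2 fold change of -1.61 (SE 0.07, adjusted p = 9.79e-10). MSMO1 had 10184 and 11116 against 3187 and 4271 (log2 fold change -1.53, SE 0.11, adjusted p = 1.57e-07). HMGCS1 had 8690.5 and 9175 against 3689 and 4462 (log2 fold change -1.14, SE 0.08, adjusted p = 1.43e-07). In all 3 genes both depleted libraries lay below both controls. ELOVL6 had 348 and 388 against 65.9 and 96.2, which was 22% of the control level (log2 fold change -2.19, SE 0.24, adjusted p = 5.63e-06).

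STARD4 had 3847 and 4009 normalized counts in siControl_TGFβ and 1882 and 2096 in siPHF13_TGFβ (log2 fold change -0.98, SE 0.08, adjusted p = 3.9e-07). ACSS2 had 3405 and 3241 against 1597 and 1989 (log2 fold change -0.90, SE 0.09, adjusted p = 3.58e-06). ACAT2 had 3439 and 3677 against 1994 and 2575 (log2 fold change -0.65, SE 0.10, adjusted p = 0.000128). The groups did not overlap in these genes, but ACAT2 was under the threshold on the fold change without siPHF13_TGFβ replicate 1 (-0.47). FADS2 had 16084 and 14067 against 9607 and 9664 (log2 fold change -0.64, SE 0.09, adjusted p = 3.91e-05) and was under that threshold without siControl_TGFβ replicate 1 (-0.55). CYP51A1 had 331 and 482 against 155 and 272 (log2 fold change -0.95, SE 0.24, adjusted p = 0.00495), and its call was lost without siControl_TGFβ replicate 2 (-0.68, adjusted p = 0.0779) or siPHF13_TGFβ replicate 1 (-0.55, adjusted p = 0.0517).

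Called lower with TGFβ but not without it were ABCA1 and FASN. ABCA1, the pump that loads cholesterol onto apolipoprotein A-I, had 1120.1 and 1222 normalized counts in siControl_TGFβ and 706 and 798 in siPHF13_TGFβ, a log2 fold change of -0.64 (SE 0.10, adjusted p = 0.000163). FASN had 43394 and 41348 against 29120.4 and 26292, a log2 fold change of -0.61 (SE 0.07, adjusted p = 1.29e-05). The groups did not overlap in either gene. Both calls were near the threshold on the fold change: ABCA1 was under it without siControl_TGFβ replicate 2 (-0.58), without siPHF13_TGFβ replicate 1 (-0.55) and after correction for GC content and length (-0.43), and FASN without siControl_TGFβ replicate 1 (-0.58), without siPHF13_TGFβ replicate 2 (-0.54) and after that correction (-0.53).

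The 5 control genes were again without a call, beside 8.81% of all genes called higher and 11.7% lower. Their median log2 fold change was 0.18. SREBF1 had 3552 and 2964 normalized counts in siControl_TGFβ and 4355 and 3984 in siPHF13_TGFβ and was higher by the adjusted p alone (log2 fold change 0.36, SE 0.11, adjusted p = 0.012). SREBF2 had 8497 and 7935 against 7382 and 6889 and was lower by the adjusted p alone (log2 fold change -0.20, SE 0.08, adjusted p = 0.0368). SCAP had 2668 and 2289 against 3162 and 2810.5 and was higher by the adjusted p alone (log2 fold change 0.27, SE 0.08, adjusted p = 0.0163). The anchors did not pass the adjusted p, with 6838 and 6569 against 7284 and 7953 for INSIG1 (log2 fold change 0.18, adjusted p = 0.0741, 95% interval 0.01 to 0.36) and 1059 and 1156 against 891 and 1255 for INSIG2 (-0.07, 95% interval -0.37 to 0.23).

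The siPHF13_TGFβ libraries differed more from each other than those of the other groups, by a median absolute log2 difference of 0.145 over all genes, against 0.0722 in siControl, 0.104 in siPHF13 and 0.112 in siControl_TGFβ. Over the 18 enzymes of the mevalonate and sterol arms replicate 2 was higher than replicate 1 in 15 in siPHF13_TGFβ, by a median log2 difference of 0.27, in 15 in siControl (0.05), in 17 in siPHF13 (0.11) and in 12 in siControl_TGFβ (0.03). Of all genes, 48.3% to 51.3% were higher in replicate 2. Leaving out 1 of these libraries brought 3 further members past both thresholds: PMVK without siPHF13_TGFβ replicate 1 (0.59), and IDI1 (-0.62) and HSD17B7 (-0.61) without siPHF13_TGFβ replicate 2. LSS, at -0.55 with all libraries, was called without siControl_TGFβ replicate 1 (-0.62).

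**Figure D3:**
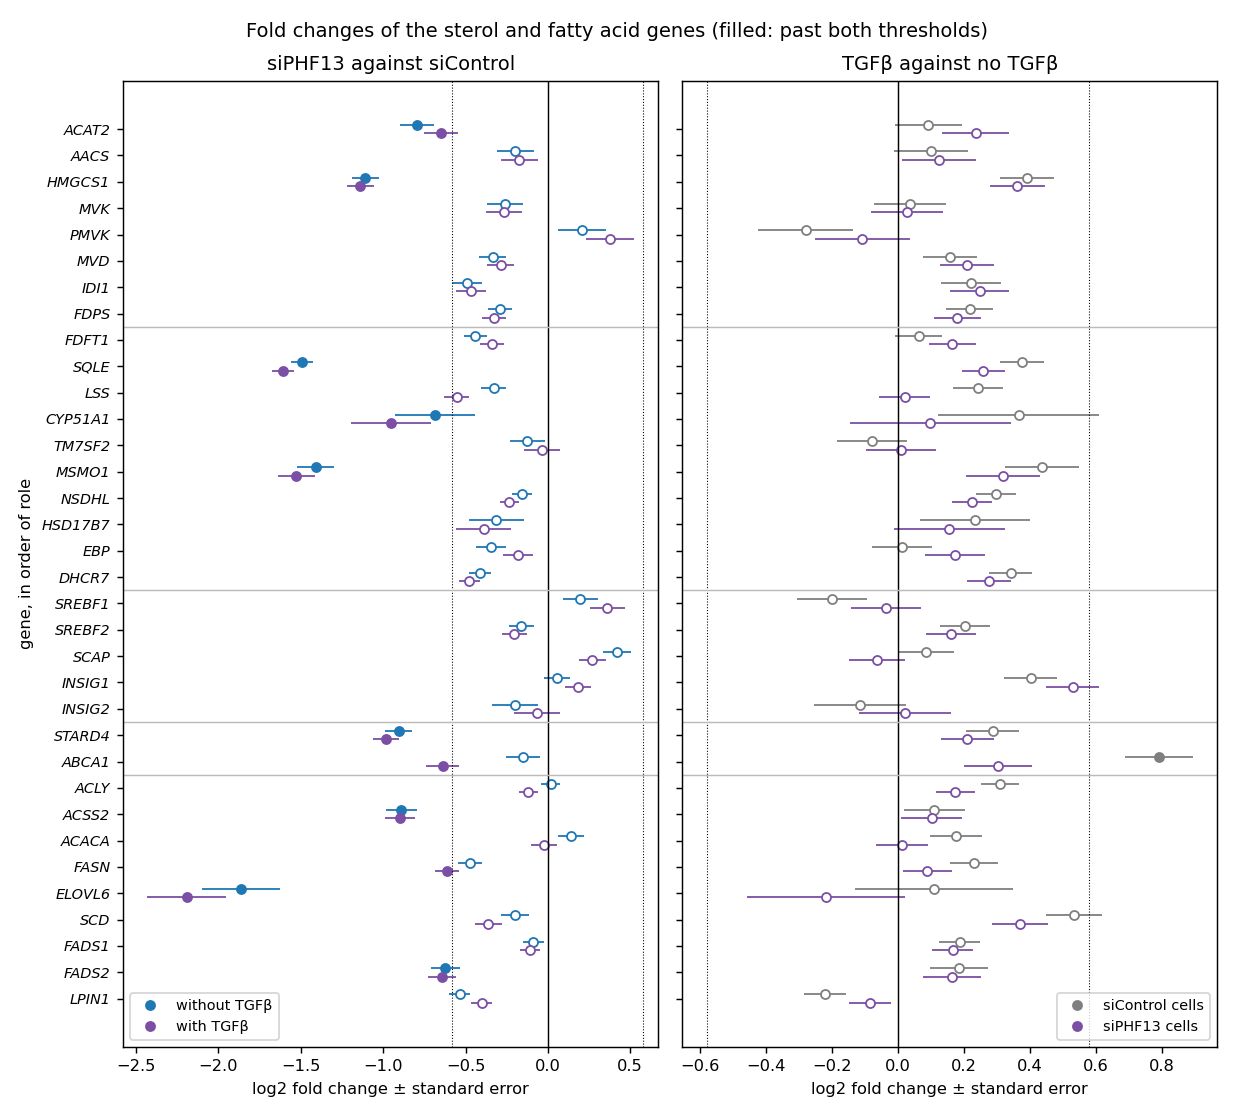
Log2 fold changes (points, horizontal axes) with their standard errors for the 34 members in order of role, for depletion of PHF13 without and with TGFβ (left) and for TGFβ in siControl and in siPHF13 cells (right). Filled points passed both thresholds and dotted lines mark the fold threshold. On the left the called members all lie to the left of 0, from -2.19 to -0.61, and on the right ABCA1 in siControl cells is the one filled point.

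Fold changes of the members with TGFβ were mostly positive. In siControl cells 1 of 34 members (2.94%), ABCA1, was called higher and none lower, beside 3.27% and 1.52% of all genes, so that the share called was near that of all genes. By the adjusted p alone 12 members (35.3%) were higher and 1, LPIN1, was lower, beside 9.21% and 6.67% of all genes. LPIN1 was also the 1 member lower at an unadjusted p under 0.05, and edgeR and DESeq2 called 1 higher and 0 lower. The median log2 fold change was 0.20 over the members and -0.01 over all genes, and 29 of 34 were positive. ABCA1 had 669.6 and 680.3 normalized counts in siControl and 1120.1 and 1222 in siControl_TGFβ, without overlap, a level of 174% of the untreated one (log2 fold change 0.79, SE 0.10, adjusted p = 0.000135).

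Of the other 11 members higher by the adjusted p alone, SCD had the largest fold change, with 93656 and 101162 normalized counts in siControl and 148227 and 133943 in siControl_TGFβ (log2 fold change 0.53, SE 0.08, adjusted p = 0.000618). It was past both thresholds without siControl replicate 2 (0.59) or siControl_TGFβ replicate 2 (0.61). MSMO1 (0.44), INSIG1 (0.40), HMGCS1 (0.39), SQLE (0.38), DHCR7 (0.34), ACLY (0.31), NSDHL (0.30), STARD4 (0.29), LSS (0.24) and FASN (0.23) followed. INSIG1 rose from 5078 and 5063 to 6838 and 6569 normalized counts by the adjusted p alone (adjusted p = 0.00363). Levels of SREBF1 (-0.20), SREBF2 (0.20), SCAP (0.09) and INSIG2 (-0.11) did not pass the adjusted p. The 9 members lowered by depletion all had positive log2 fold changes here, from 0.09 to 0.44, and both comparisons share the siControl libraries. The keratins KRT8 and KRT19 were called lower with TGFβ (-0.68 and -0.84). From siControl to siControl_TGFβ the mean normalized counts of KRT18 (48208 to 32492) and EPCAM (158 to 125) were also lower. Those of KRT7 were not (420 to 433).

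In siPHF13 cells TGFβ moved no member past both thresholds, beside 1.13% of all genes higher and 0.218% lower. At an unadjusted p under 0.05 from limma 17 members were higher and 0 lower. With edgeR and DESeq2 likewise none was called, and 16 each were higher at an unadjusted p under 0.05. The share of all genes at an unadjusted p is not given here, so these counts have no background beside them. By the adjusted p alone 4 members (11.8%) were higher, beside 2.22% of all genes, and these were INSIG1, SCD, HMGCS1 and DHCR7, which were also higher by that measure in siControl cells. INSIG1 had 4804 and 5782 normalized counts in siPHF13 and 7284 and 7953 in siPHF13_TGFβ (log2 fold change 0.53, SE 0.08, adjusted p = 0.00164). It was past both thresholds without siPHF13 replicate 2 (0.66) or siPHF13_TGFβ replicate 1 (0.59). SCD had 77783 and 92639 against 110158 and 109278 (log2 fold change 0.37, SE 0.08, adjusted p = 0.0281). ABCA1 had 583 and 634 against 706 and 798, a log2 fold change of 0.30 (SE 0.10, adjusted p = 0.166). The 2 TGFβ comparisons share no library, and 30 of 34 members had the same sign in both. The log2 fold changes had a Pearson correlation of 0.722 across members and 0.516 across all genes, given as a description.

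The interaction asked whether the response to TGFβ differed between siPHF13 and siControl cells. No member was called, beside 0.0601% of all genes with a more positive and 0.248% with a more negative response. The log2 differences ran from -0.49 to 0.17, with a median of -0.03 over the members and -0.01 over all genes. At an unadjusted p under 0.05, with no share of all genes beside it, limma had 1 member, edgeR 2 and DESeq2 1. In limma this was ABCA1, whose response was lower in siPHF13 cells by a log2 difference of -0.49 with a 95% interval of -0.80 to -0.18, which failed the correction (adjusted p = 0.226). For HMGCS1 the difference was -0.03 (95% interval -0.28 to 0.22), for SQLE -0.12 (-0.32 to 0.08), for MSMO1 -0.12 (-0.46 to 0.23) and for INSIG1 0.13 (-0.12 to 0.37). That ABCA1 was called lower after depletion with TGFβ and not without it is therefore not shown to be a difference between the conditions.

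Genes around the pathway were counted in 6 further lists, of which 108 of 112 were in the table (HACD1, HACD2 and HACD3 under older symbols). Without TGFβ depletion raised 8 of them and lowered 11, that is 7.41% and 10.2%, near the 7.95% and 10.4% of all genes. Their median log2 fold change was 0.00. With TGFβ 8 were called higher and 13 lower, or 7.41% and 12%, beside 8.81% and 11.7% of all genes. TGFβ moved 1 higher and 1 lower in siControl cells and 1 higher in siPHF13 cells. The interaction had 0 calls in the lists with limma, edgeR or DESeq2. Of the 108 genes, 9 had an unadjusted p under 0.05 from limma, with no share of all genes beside them. The plot of the lists sets these genes beside the members.

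Of 15 genes that process or degrade SREBPs, 1 was called higher (6.67%, beside 7.95% of all genes) and none lower. This was the ubiquitin ligase subunit FBXW7, which marks nuclear SREBPs for destruction. It had 789 and 832 normalized counts in siControl and 1314 and 1455 in siPHF13 (log2 fold change 0.77, SE 0.09, adjusted p = 1.64e-05) and was also called higher with TGFβ (0.83). The list's median was -0.06 in both comparisons. In the 15 genes of the non-sterol branches from the same isoprenoids, COQ2, which prenylates the ring of coenzyme Q, was called higher without TGFβ (0.95) and with it (1.26), and FNTB, a farnesyltransferase subunit, lower without it (-0.66, though under the fold threshold without siPHF13 replicate 2 at -0.56). Of this list 6.67% were called higher and 6.67% lower without TGFβ, beside 7.95% and 10.4% of all genes. With TGFβ these shares were 6.67% and 0%, beside 8.81% and 11.7%. The list medians were 0.14 and 0.08.

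Of 19 measured genes of sterol uptake, storage and transport, the lysosomal acid lipase LIPA was called higher, with 14417 and 14932 normalized counts in siControl and 22238 and 22918 in siPHF13 (log2 fold change 0.62, SE 0.06, adjusted p = 1.53e-06), and 0.86 with TGFβ. The lipoprotein receptor VLDLR was called lower without TGFβ, with 379 and 362 against 239.7 and 182 (-0.82). The receptor LRP1 was called higher with TGFβ in siControl cells (0.72) and lower after depletion in TGFβ-treated cells (-0.72). After depletion without TGFβ it was lower by the adjusted p alone (-0.52). STARD10, a phospholipid carrier, was called higher with TGFβ in siPHF13 cells (0.65), where LRP1 was past both thresholds without siPHF13_TGFβ replicate 2 (0.66) and at 0.51 with all libraries. The list medians under depletion were 0.01 and -0.15.

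Among 8 measured LXR factors and targets, the receptor NR1H3 (LXRα) had 192 and 205 normalized counts in siControl and 488 and 516 in siPHF13, a log2 fold change of 1.33 (SE 0.13, adjusted p = 2.91e-06), and 1.40 with TGFβ. RXRA, which is among its partners, went the other way, with 1591 and 1655 against 819.6 and 818. Its log2 fold change was -0.99 (SE 0.08, adjusted p = 6.77e-07), and -1.16 with TGFβ. In both genes all libraries with siPHF13 lay apart from all libraries with siControl. Another partner, RXRB, was called higher without TGFβ, close to the fold threshold (0.61). It had 893 and 869 normalized counts in siControl and 1343 and 1356 in siPHF13. In the list 25% were called higher and 12.5% lower without TGFβ, beside 7.95% and 10.4% of all genes. With TGFβ these shares were 12.5% and 12.5%, beside 8.81% and 11.7%. The list medians were 0.40 without TGFβ and 0.33 with it.

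In the list of further fatty acid and glycerolipid synthesis, depletion lowered 6 of 30 genes and raised 2 without TGFβ. These were 20% and 6.67%, beside 10.4% and 7.95% of all genes. With TGFβ 7 were called lower and 2 higher, or 23.3% and 6.67%, beside 11.7% and 8.81% of all genes. The list medians were -0.07 and -0.17. Other elongases were among the called genes. ELOVL7, of very long saturated chains, had 315 and 381 normalized counts in siControl and 84.5 and 107 in siPHF13 (-1.86 without TGFβ and -1.91 with it), and ELOVL5, of polyunsaturated chains, had 21094 and 22278 against 11319 and 11686 (-0.91 without TGFβ). The malic enzyme ME1, a source of NADPH, was called lower after depletion in TGFβ-treated cells (-1.02) and in untreated cells (-0.67). In untreated cells it was under the fold threshold without siControl replicate 2 (-0.55) or siPHF13 replicate 2 (-0.57). The acyl-CoA ligase ACSL5 was called lower with TGFβ in siControl cells (-0.62), which was lost without siControl replicate 1 (adjusted p = 0.0523), siControl replicate 2 (adjusted p = 0.0592) or siControl_TGFβ replicate 1 (adjusted p = 0.0777).

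Fatty acid oxidation, the opposite route, had a median of -0.03 without TGFβ and 0.06 with it. Of its 21 genes 2 were called lower and 1 higher without TGFβ, and 3 lower and 2 higher with it. The shares were 9.52% and 4.76% without TGFβ, beside 10.4% and 7.95% of all genes. With TGFβ they were 14.3% and 9.52%, beside 11.7% and 8.81% of all genes. The medium-chain dehydrogenase ACADM had 3092 and 3163 normalized counts in siControl and 1421 and 1464 in siPHF13, a log2 fold change of -1.12 (SE 0.07, adjusted p = 4.75e-08), and -1.24 with TGFβ. The carnitine transferase CPT1A, which admits long chains to the mitochondrion, had 8574 and 8765 against 3989.5 and 4134, a log2 fold change of -1.09 (SE 0.06, adjusted p = 1.52e-08). CPT1C, the form of neurons, was low, with 18.3 and 7.2 in siControl_TGFβ and 43.2 and 54.9 in siPHF13_TGFβ (1.98).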

How the data were processed

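RNA of Panc-1 cells was sequenced as paired-end 150 bp reads in 8 libraries of 4 groups. Per the labels and the methods, the authors trimmed reads with Trim Galore 0.4.1, mapped them with STAR 2.7.0 to hg19, counted reads on exons with htseq-count (HTSeq 0.12.4) and normalized the counts with DESeq2. The annotation release and the strand setting are not given in the sources used here. The deposited values are a signal, gene counts divided by a size factor of the library. The other deposited tables hold the authors' own comparisons (fold changes and p-values) and were not used.

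All values of a library are whole multiples of 1 step, to within 1e-06 reads (100% of values), which gave whole reads. In siPHF13 replicate 1 the step is 0.995, close to 1, but the values are not whole numbers themselves.

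The 4 comparisons of groups and the interaction came from 1 limma fit (limma 3.58.1, R 4.3.3) with a trended prior variance on log2(value + 1) over all 8 libraries without a block, with Benjamini-Hochberg adjustment over 13307 genes. Fold changes are on that scale. A gene was called where its adjusted p was under 0.05 and its log2 fold change beyond 0.58 in either direction. A minimum of 10 normalized counts in 2 libraries removed 0 genes. Intervals are 95% intervals from the moderated variance. Counts at an unadjusted p cover only members or listed genes, and the share of all genes at that p is not given. The procedure was tested on simulated data. The members and gene lists were chosen with earlier results of these data known. Values in every library are given for members called in any comparison of groups and for SREBF1, SREBF2, SCAP, INSIG1 and INSIG2. Of each further list, at most 2 called genes per comparison, those with the largest fold changes, are named. SCD, NSDHL, ACLY, RXRB, EPCAM and KRT genes were given values after these had been seen.

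Alternatives were a pseudocount of 5, no minimum, TMM factors, only the compared libraries, a replicate block, no fold threshold, edgeR 4.0.16 and DESeq2 1.42.0 on whole reads, each library left out and, chosen after seeing the data, a correction for GC content and length (splines with 5 degrees of freedom, values for 98.6% of genes). Gene spans are GRCh37, from GENCODE. Promoters are from RefSeq. Some genes of the pathway are not analysed here.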

Additional observations from a re-analysis of the deposited data

How the results depend on the processing

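Over 16 alternatives no log2 fold change of a member or named gene reversed a call, with RXRB not followed. Counts of members past both thresholds ran from 7 to 9 (9 in the fit as reported) for depletion and from 8 to 12 (11) for depletion with TGFβ when each library was left out, and were 9 throughout and from 9 to 11 under the other alternatives that keep the fold threshold. The replicate block gave 9, 11 and 1 members, as without it, and 2438, 630, 2711, 171 and 39 genes in all for the 5 comparisons. Over all genes same-numbered libraries did not deviate together (correlations from -0.089 to 0.050). Over the 34 members the correlations were 0.45 between siControl and siPHF13, 0.58 between siControl_TGFβ and siPHF13_TGFβ, and from -0.290 to -0.100 for the other pairs of groups. The labels give no shared origin, so the numbers were not taken as pairs, and the block changed no call of a member.

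Without the fold threshold, 1 member was higher and 19 lower after depletion, 12 and 1 with TGFβ in siControl cells, 3 and 21 after depletion with TGFβ, and 4 higher with TGFβ in siPHF13 cells. Over all genes 6308, 2114, 6712 and 409 passed, against 2448, 637, 2726 and 179, and in the further lists 60, 11, 65 and 4, against 19, 2, 21 and 1. With each library left out, members called higher ran from 1 to 2 for TGFβ in siControl cells, from 0 to 1 for depletion with TGFβ and from 0 to 1 for TGFβ in siPHF13 cells. In the further lists the counts ran from 1 to 2 for TGFβ in both kinds of cells. The interaction over all genes had 41 calls, 64 with DESeq2, and from 12 to 111 with 1 library left out: 12 without siControl replicate 2, 16 without siControl_TGFβ replicate 1, 19 without siControl replicate 1, 21 without siControl_TGFβ replicate 2, 22 without siPHF13 replicate 1 and 111 without siPHF13_TGFβ replicate 1. The causes were not tested. The largest shift of the median of all genes under another scaling was 0.03. With 2 libraries per group the spread rests on the fit shared by all groups, and a lone library left in a group is assumed to vary like the others.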
